A study of Mus musculus with 18 samples.

Results

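The genes described here encode the Polycomb and trithorax chromatin regulators of the mouse, together with the looping proteins that act with them. They were chosen by name, with earlier results of these data known, as subunits of Polycomb repressive complex 2 (PRC2) and 1 (PRC1), subunits of the MLL histone methyltransferase complexes, the H3K27 demethylases, CTCF and cohesin. All 40 chosen genes were found among the 27179 genes of the count tables, and all 40 entered every test.

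Polycomb complexes keep developmental genes silent. PRC2 methylates lysine 27 of histone H3 through Ezh1 or Ezh2, PRC1 ubiquitylates histone H2A through Ring1 or Rnf2, and its canonical forms read the mark of PRC2 through a Cbx protein. Trithorax-type MLL complexes place methyl groups on lysine 4 of histone H3, Kdm6a and Kdm6b erase the mark of PRC2, and CTCF with cohesin sets the borders of chromatin loops. These regulators are known for holding the Hox clusters silent or open in spinal motor neurons, where the Hox code gives each neuron its position along the neck and trunk.

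RNA-seq was performed on 18 libraries of mouse embryonic stem cells (Ainv15 lines) that were differentiated as embryoid bodies toward spinal motor neurons and interneurons, 3 libraries in each of 6 groups. All groups received 1 µM retinoic acid and 0.5 µM of the Hedgehog agonist SAG from day 0. Day 2 progenitors (iCre line, no doxycycline) were collected on day 2, before any induction. Control neurons (iFlag.Hoxc6 line, no doxycycline) were collected on day 4. The iHoxc6, iHoxc8, iHoxc9 and iHoxc10 neurons (lines iFlag.Hoxc6, iFlag.Hoxc8, iFlag.Hoxc9 and iFlag.Hoxc10) received 3 µg/ml doxycycline from day 2 and were collected 48 h later, on day 4. Each inducible line carries a single copy of a Flag-tagged Hox gene at the Hprt locus, so each condition rests on 1 engineered line, and control shares its line with iHoxc6 alone. The labels call all samples embryoid bodies, which hold more than neurons.

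The libraries held 24498630 to 33168533 counts each. The induced gene checked the labels: Hoxc6 reached 499.9 to 532 CPM (counts scaled by TMM-normalized library size) in iHoxc6 against 1.80 to 5.17 in control, and Hoxc8, Hoxc9 and Hoxc10 reached 361 to 409.9, 213 to 236 and 425 to 433 CPM in their own lines. Summed over 10 neuronal markers, levels were 383 to 801 CPM on day 2 and 8223 to 9022 CPM in control. The 7 pluripotency markers summed to 8.59 to 14.6 CPM on day 2 and 1.12 to 1.73 CPM in control, though Nanog, 1 of them, did not exceed 0.0349 CPM in any library. The sequencing runs split the groups: day 2 formed its own run, control and iHoxc6 shared a run, iHoxc8 had its own, and iHoxc9 and iHoxc10 shared one. Only iHoxc6 against control and iHoxc9 against iHoxc10 could therefore be compared within a run. Elsewhere run and group cannot be told apart, and between day 2 and day 4 the line differs as well. Within their groups, day 2 replicate 3 and control replicate 2 stood farthest from the others (SD over genes of the deviation from the group mean, 0.403 and 0.322 on the log2 scale, against 0.116 to 0.271 in the other 16 libraries), and the counts below are also given without them.

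The first comparison asked how the regulators changed between day 2 progenitors and day 4 control neurons. Of the 40 genes, 8 rose and 19 fell (edgeR quasi-likelihood test over 20944 genes, adjusted p under 0.01), where 42.4% of all genes tested were called, 21.2% higher and 21.2% lower. Most core genes of PRC2 and all cohesin genes fell, whereas the accessory genes of PRC2 and the Cbx readers of PRC1 moved in both directions. The median log2 fold change of the 40 was -0.14, against 0 over all genes and 0.03 over a smaller set of 13192 genes. Only Phf19 also passed the fold threshold used in the study, an absolute log2 fold change above 2, which 12.6% of all genes did. Without day 2 replicate 3 and control replicate 2 together, a fit added after the data were seen, 9 genes rose and 19 fell. The share of all genes called in that fit is not given here.

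**Figure D1:**
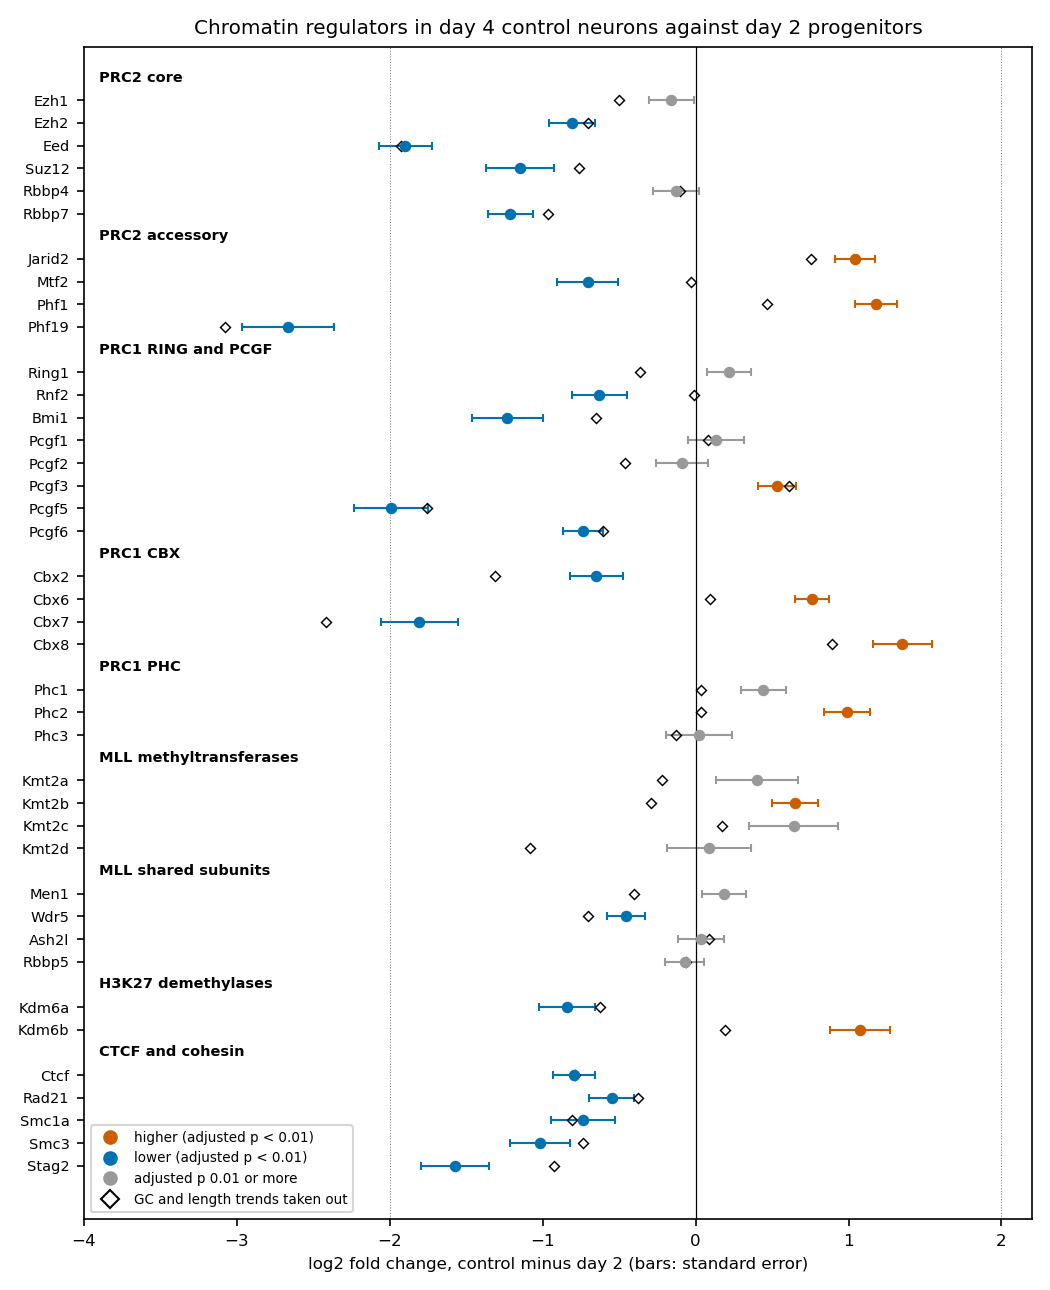
Log2 fold change (x axis, control minus day 2) of each of the 40 genes (y axis, grouped by complex), with circles for the edgeR estimate, bars for its standard error, colors for the call at an adjusted p under 0.01 and open diamonds for the estimate once library trends with GC content and length were taken out. Eed (-1.90), Phf19 (-2.67) and Cbx7 (-1.81) lie at the low end in both estimates, while the diamonds of Kdm6b and Phc2 lie near 0.

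PRC2 is built on 4 core proteins, and 4 of the 6 genes that encode them fell. Eed, which binds the methyl mark and stimulates the enzyme, stood at 109.9, 99.6 and 57.1 CPM in the day 2 libraries and at 24.2, 23.6 and 23.7 CPM in the control libraries. The groups did not overlap, and day 2 replicate 3 was the lowest of its group (log2 fold change -1.90 ± 0.17 (SE), adjusted p = 4.04e-09). Suz12, the scaffold of the complex, fell from 92.0, 67.7 and 55.2 CPM to 35.0, 34.2 and 27.5 CPM (log2 fold change -1.15 ± 0.22 (SE), adjusted p = 0.000137). Its groups did not overlap either.

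Ezh2, the methyltransferase of dividing cells, was at 197, 173 and 156 CPM on day 2 and 93.5, 128 and 78.7 CPM in control (log2 fold change -0.81 ± 0.15 (SE), adjusted p = 9.25e-05). Control replicate 2 was the highest of the control libraries and still lay under every day 2 library. Ezh1, the paralog typical of non-dividing cells, held 12.8, 13.7 and 19.1 CPM and 12.7, 14.8 and 13.4 CPM, groups that overlapped and did not pass the test (log2 fold change -0.16 ± 0.14 (SE), adjusted p = 0.396). The histone chaperones differed too: Rbbp7 fell from 352, 302 and 361 to 128, 189.8 and 121 CPM (log2 fold change -1.21 ± 0.15 (SE), adjusted p = 2.81e-07), whereas Rbbp4 had 829, 864 and 639.7 CPM on day 2 and 699.7, 595 and 839 CPM in control (log2 fold change -0.13 ± 0.15 (SE), adjusted p = 0.509). The Rbbp4 groups overlapped. Rbbp4 overlaps Sync and Rbbp7 overlaps Txlng in the annotation, so some of their reads may belong to those genes.

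Accessory subunits steer PRC2 to its targets, and all 4 that were listed changed, 2 in each direction. Jarid2, which recruits PRC2 in stem cells and binds ubiquitylated nucleosomes, rose from 56.5, 52.1 and 52.1 CPM to 112, 115 and 103 CPM (log2 fold change 1.04 ± 0.13 (SE), adjusted p = 5.37e-07). Phf1, a Polycomb-like protein with a Tudor domain, rose from 6.40, 7.52 and 5.97 CPM to 14.6, 14.1 and 16.2 CPM (log2 fold change 1.18 ± 0.14 (SE), adjusted p = 1.63e-07). Both genes were higher in every control library than in any day 2 library.

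The other two Polycomb-like proteins fell. Phf19 had 2.86, 3.06 and 5.97 CPM on day 2 and 0.546, 0.578 and 0.749 CPM in control (log2 fold change -2.67 ± 0.30 (SE), adjusted p = 1.04e-07), the largest change among the 40 genes. Day 2 replicate 3 lay highest, and the groups did not overlap. Mtf2, the Polycomb-like protein of stem cells, had 112, 92.4 and 58.9 CPM and 55.3, 53.9 and 52.0 CPM (log2 fold change -0.71 ± 0.20 (SE), adjusted p = 0.00459). Its lowest day 2 library exceeded the highest control library by a few CPM only.

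**Figure D2:**
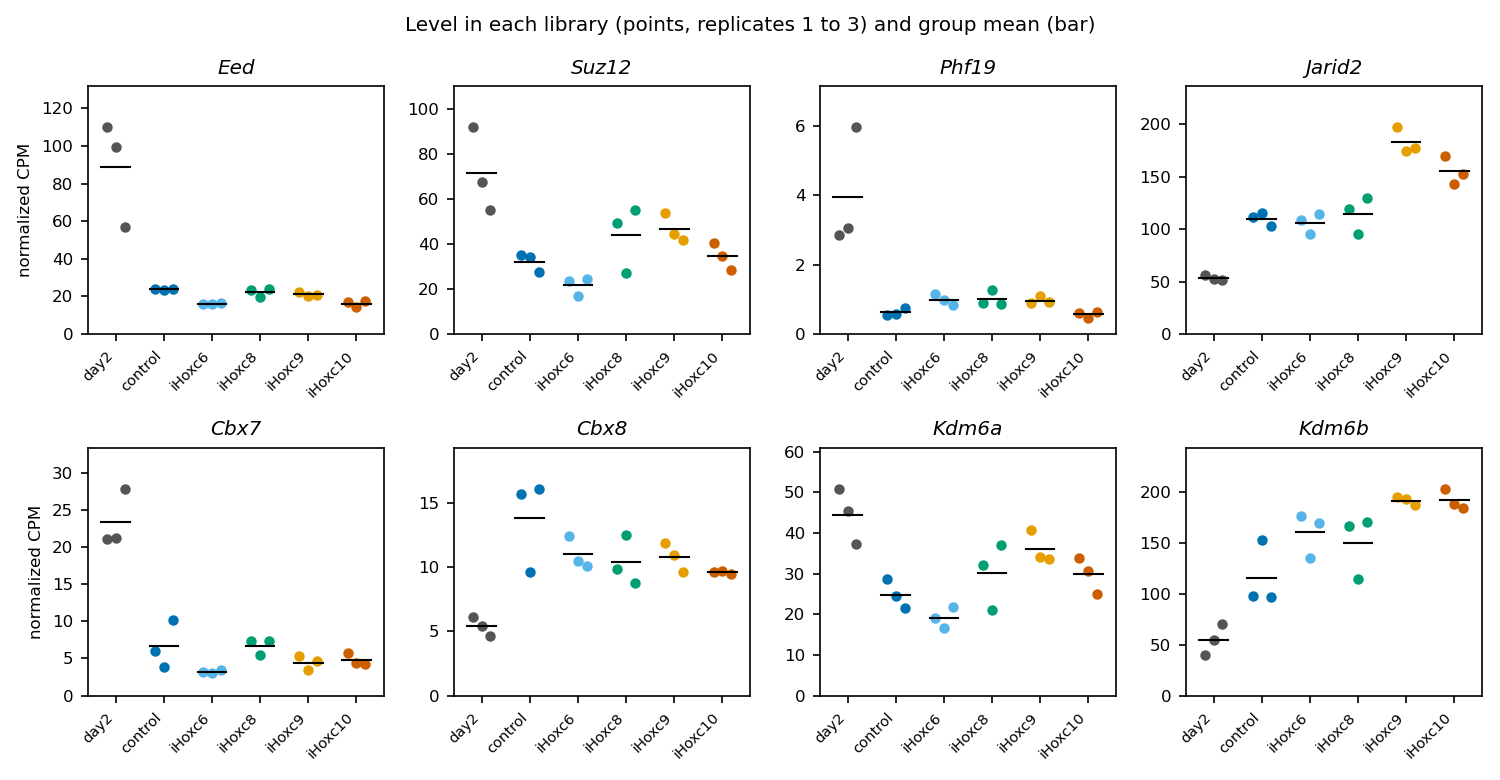
TMM-normalized CPM (y axis, linear, from 0) of 8 genes in each of the 18 libraries (points, replicates 1 to 3 from left to right) by group (x axis), with a bar at each group mean. Eed stayed under 25 CPM in all day 4 libraries against at least 57.1 CPM on day 2, whereas Jarid2 and Kdm6b were highest in iHoxc9 and iHoxc10.

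PRC1 is assembled from a Ring protein, 1 of 6 Pcgf proteins and further subunits. Of the 8 Ring and Pcgf genes, 1 rose and 4 fell. Pcgf5, a subunit of a non-canonical PRC1, dropped from 6.94, 5.76 and 5.78 CPM to 1.16, 2.08 and 1.42 CPM (log2 fold change -1.99 ± 0.24 (SE), adjusted p = 2.64e-07). Bmi1 (Pcgf4), the subunit of canonical PRC1 that sustains neural stem cells, had 95.1, 74.4 and 40.2 CPM on day 2 and 32.1, 26.5 and 30.7 CPM in control (log2 fold change -1.23 ± 0.23 (SE), adjusted p = 0.000106). In both genes the groups stood apart, with day 2 replicate 3 the lowest of its group for Bmi1.

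Pcgf6, the partner of E2f6 and Max in a stem cell PRC1, fell as well (log2 fold change -0.74 ± 0.13 (SE), adjusted p = 6.52e-05), as did Rnf2, the main E3 ligase (log2 fold change -0.63 ± 0.18 (SE), adjusted p = 0.0057). Pcgf3 was the Pcgf gene that rose (log2 fold change 0.53 ± 0.12 (SE), adjusted p = 0.000984). Its relative Pcgf2 (Mel18), which replaces Bmi1 in canonical PRC1, had 31.8, 30.8 and 54.0 CPM on day 2 and 32.9, 44.2 and 32.4 CPM in control, and did not pass the test (log2 fold change -0.09 ± 0.17 (SE), adjusted p = 0.709). Ring1 (0.22 ± 0.14) and Pcgf1 (0.13 ± 0.18) were also not called.

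The Cbx proteins read H3K27me3 and anchor canonical PRC1, and all 4 listed genes changed, 2 up and 2 down. Cbx7, the main Cbx of pluripotent cells, fell from 21.1, 21.2 and 27.8 CPM to 6.04, 3.81 and 10.2 CPM (log2 fold change -1.81 ± 0.25 (SE), adjusted p = 2.03e-06). The control libraries spread over more than a 2-fold range and all lay under day 2. Cbx2, which compacts nucleosomes, had 99.5, 109 and 155 CPM on day 2 and 58.5, 99.6 and 74.0 CPM in control (log2 fold change -0.65 ± 0.17 (SE), adjusted p = 0.00317), and control replicate 2 lay just above the lowest day 2 library, so the groups overlapped.

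Cbx8 rose from 6.16, 5.42 and 4.69 CPM to 15.7, 9.67 and 16.1 CPM (log2 fold change 1.35 ± 0.19 (SE), adjusted p = 2.55e-06). Cbx6 rose from 33.2, 35.1 and 38.0 CPM to 56.1, 61.0 and 63.1 CPM (log2 fold change 0.76 ± 0.11 (SE), adjusted p = 6.21e-06). Both were above day 2 in all control libraries. The genes lie as neighbors in pairs: Cbx2 (chr11:119023019-119031275) and Cbx8 (chr11:119036303-119040913) on chromosome 11, and Cbx6 (chr15:79823898-79834333) and Cbx7 (chr15:79915804-79971143) on chromosome 15 (GRCm38), so each pair held a gene that rose beside a gene that fell. Cbx6 overlaps Npcd and Cbx7 overlaps Apobec3, and reads could be shared there.

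The Phc proteins polymerize canonical PRC1. Phc2 rose from 159.8, 184 and 222 CPM to 335, 419 and 372 CPM without overlap (log2 fold change 0.99 ± 0.15 (SE), adjusted p = 6.6e-06). Phc1, the Phc of embryonic stem cells, had 50.6, 55.0 and 74.3 CPM and 75.2, 100.5 and 69.1 CPM, which overlapped (log2 fold change 0.44 ± 0.15 (SE), adjusted p = 0.0159). Phc3 showed no difference that passed (0.02 ± 0.22).

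Calls on the trithorax side were fewer. Of the 4 MLL methyltransferases, Kmt2b (MLL2), which marks bivalent promoters, rose (log2 fold change 0.65 ± 0.15 (SE), adjusted p = 0.000805), and Kmt2a (0.40 ± 0.27), Kmt2c (0.64 ± 0.29) and Kmt2d (0.09 ± 0.28) did not pass the test, with standard errors among the largest of the 40 genes. Of the shared subunits, the WD-repeat scaffold Wdr5 fell (log2 fold change -0.46 ± 0.13 (SE), adjusted p = 0.00367), and Ash2l (0.03 ± 0.15), Rbbp5 (-0.07 ± 0.13) and the menin gene Men1 (0.19 ± 0.14) were not called.

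The demethylases of H3K27 went opposite ways. Kdm6b (JMJD3) rose from 39.8, 55.0 and 70.6 CPM to 98.4, 153 and 96.8 CPM (log2 fold change 1.08 ± 0.20 (SE), adjusted p = 8.28e-05). Kdm6a (UTX), which belongs to the complexes of Kmt2c and Kmt2d, fell from 50.9, 45.4 and 37.2 CPM to 28.8, 24.4 and 21.4 CPM (log2 fold change -0.84 ± 0.18 (SE), adjusted p = 0.000506). Neither gene's groups overlapped, and control replicate 2 was by far the highest control library for Kdm6b.

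All 5 genes of CTCF and cohesin fell. Stag2, the cohesin subunit that sits on the ring in most somatic cells, went from 276, 206 and 107 CPM to 78.1, 63.4 and 56.3 CPM (log2 fold change -1.57 ± 0.22 (SE), adjusted p = 3.17e-06). Day 2 replicate 3 was the lowest of its group, at 107 CPM. Smc3, one arm of the ring, went from 148, 109 and 133 CPM to 58.9, 89.7 and 43.9 CPM (log2 fold change -1.02 ± 0.20 (SE), adjusted p = 0.000124). The other arm, Smc1a (log2 fold change -0.74 ± 0.21 (SE), adjusted p = 0.00454), the kleisin Rad21 (log2 fold change -0.55 ± 0.15 (SE), adjusted p = 0.00277) and the boundary factor Ctcf (log2 fold change -0.79 ± 0.14 (SE), adjusted p = 4.44e-05) changed less. Smc1a overlaps Ribc1 and Ctcf overlaps Gm5914.

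Other measures moved with these changes. All 15 markers of cycling cells were lower in control than on day 2 (summed level 4610.2 to 4949.6 CPM on day 2 and 1198 to 2093 CPM in control, none at 0), all 10 neuronal markers were higher, and 4 of 7 pluripotency markers were lower. Of 8 neural progenitor markers, Sox1, Sox2 and Pax6 were lower and the others were not called. Their summed level overlapped, at 980 to 1080 CPM on day 2 and 828 to 1555 CPM in control. In these bulk samples, fewer cells of a type and less RNA per cell cannot be told apart, and the part of cell composition in the changes of the 40 genes was not tested.

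Base composition moved with them as well. The longest transcripts of the 8 genes that rose had a median GC content of 56.7%, those of the 19 that fell 44.4%, and those of the other 13 50.9%. Over all genes tested the same classes had medians of 52.7%, 46.6% and 49.6%. Across 12598 genes, which are not independent replicates, the deviation of a library from its group mean correlated with GC content at r = -0.64, -0.16 and 0.52 in the day 2 libraries. When smooth trends with GC content and exon length were taken out of each library, an alternative added after the data were seen, 4 of the 8 genes remained higher, namely Jarid2 (0.76), Phf1 (0.46), Pcgf3 (0.61) and Cbx8 (0.89). Kdm6b (0.19), Phc2 (0.03), Cbx6 (0.10) and Kmt2b (-0.29) lost their call. Of the 19 lower genes 16 remained, and Mtf2 (-0.03), Rnf2 (-0.01) and Rad21 (-0.37) did not, while Ezh1 (-0.50), Pcgf2 (-0.46), Kmt2d (-1.09) and Men1 (-0.40) were called lower. The losses of Eed (-1.92), Phf19 (-3.08), Pcgf5 (-1.76) and Cbx7 (-2.42) stayed among the largest. Of all genes, 9382 were called in that fit, and their split by direction is not given here.

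**Figure D3:**
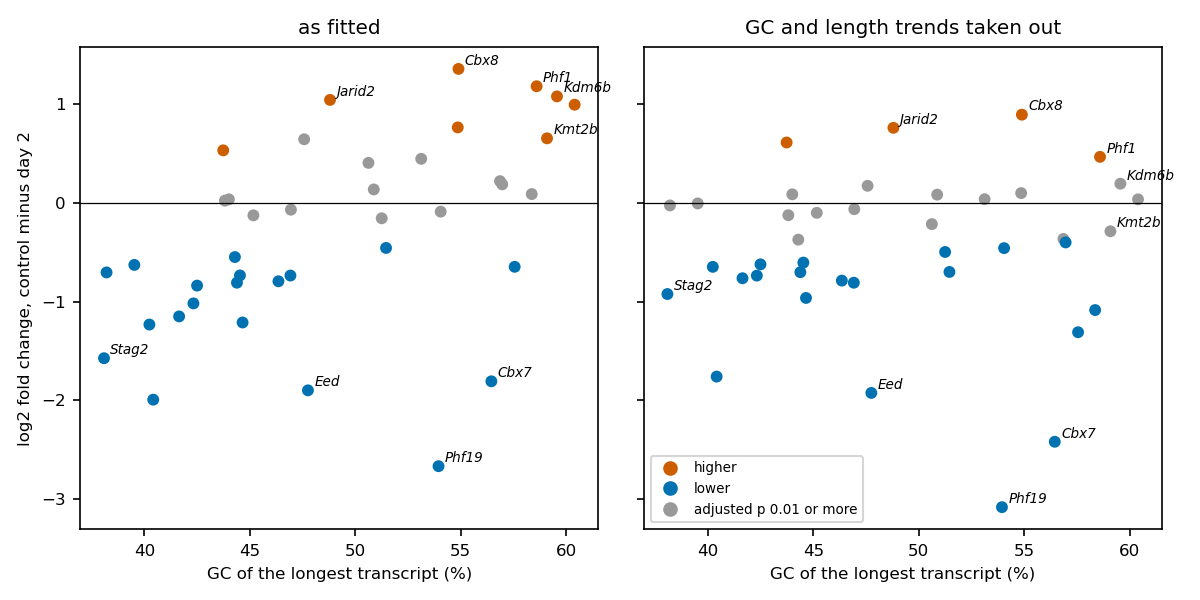
Log2 fold change of control minus day 2 (y axis) of the 40 genes (points) against the GC content of the longest transcript (x axis, percent), as fitted (left) and with library trends with GC content and length taken out (right), colored by the call at an adjusted p under 0.01. Genes that rose sit at a median of 56.7% GC on the left, and on the right Kdm6b and Kmt2b are no longer called.

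The Hox-induced groups were also compared with day 2, the same 3 libraries as above. In iHoxc6, 10 of the 40 genes were higher and 16 lower, where 46.6% of all genes were called, 22.7% higher and 23.9% lower. For iHoxc8 the counts were 10 and 11, against 44.6% of all genes, 22.3% higher and 22.3% lower. For iHoxc9 they were 12 and 10, against 46.7% of all genes, 23.4% higher and 23.3% lower. For iHoxc10 they were 12 and 16, against 50.2% of all genes, 24.1% higher and 26.1% lower. Past an absolute log2 fold change of 2 as well, the same order of lines gave 4, 1, 4 and 5 of the 40 genes, against 14.8%, 14.2%, 15.6% and 18.7% of all genes. With the GC and length trends taken out, iHoxc6 had 2 higher and 20 lower, iHoxc8 had 2 and 19, iHoxc9 had 5 and 17, and iHoxc10 had 5 and 21. That fit called 9740, 9997, 10260 and 10778 of all genes in these lines. Their split by direction is not given here. Set against all 15 day 4 libraries together, 8 genes stood above every day 2 library, namely Jarid2, Phf1, Pcgf3, Cbx6, Cbx8, Phc2, Kmt2b and Kdm6b, as did 19% of all genes. Another 12 stood below every day 2 library, namely Ezh2, Eed, Rbbp7, Phf19, Pcgf5, Pcgf6, Cbx7, Wdr5, Ctcf, Rad21, Smc3 and Stag2, as did 17.7% of all genes. The remaining 20 overlapped.

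Each induced line was then compared with control, which asked whether a Hox gene altered the regulators on the same day. All 4 comparisons share the same 3 control libraries. Each call of the edgeR fit was an increase. In iHoxc6, the line that shares its run and its parent line with control, 0 of the 40 genes passed (0.587% of all genes did, 0.363% higher and 0.224% lower), while 12 had an unadjusted p under 0.05 and DESeq2's Wald test called 1, Cbx7, lower. In iHoxc8 0 passed (2.12% of all genes, 1.03% higher and 1.09% lower), 11 had an unadjusted p under 0.05 and DESeq2 called 0. For the unadjusted limit, the share of all genes is not given here. In iHoxc9, 2 genes were higher and 0 lower, where 14.1% of all genes were called, 6.95% higher and 7.13% lower. In iHoxc10, 5 were higher and 0 lower, where 14.4% of all genes were called, 6.67% higher and 7.75% lower. None of the 40 also exceeded an absolute log2 fold change of 2, as 0.115%, 0.22%, 2.7% and 1.48% of all genes did in the 4 lines in that order. DESeq2 called 5 higher and 1 lower in iHoxc9 and 7 higher and 2 lower in iHoxc10.

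Jarid2 was called in both posterior lines. It stood at 197, 175 and 178 CPM in iHoxc9 and at 169.7, 143 and 153 CPM in iHoxc10, against 112, 115 and 103 CPM in control. All 6 libraries lay above all 3 of control (iHoxc9, log2 fold change 0.73 ± 0.13 (SE), adjusted p = 0.000254; iHoxc10, log2 fold change 0.49 ± 0.13 (SE), adjusted p = 0.00715). The iHoxc6 libraries had 109, 95.1 and 114 CPM and the iHoxc8 libraries 119, 95.5 and 130.1 CPM, within or close to the range of control. In iHoxc9 the call held under each of the 13 alternatives, with log2 fold changes of 0.41 to 0.77. In iHoxc10 it was lost in 8 of 13, with log2 fold changes of 0.20 to 0.55.

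Kdm6b stood at 195, 193 and 188 CPM in iHoxc9 and 204, 188 and 184 CPM in iHoxc10. Control had 98.4, 153 and 96.8 CPM, with replicate 2 far above the other two, and iHoxc6 and iHoxc8 had 177, 135 and 170.2 CPM and 167, 114 and 170.5 CPM. Both posterior lines lay above all of control, and both tests passed narrowly (log2 fold change 0.73 ± 0.20 (SE), adjusted p = 0.00941 and log2 fold change 0.73 ± 0.20 (SE), adjusted p = 0.00917). The call was lost in 9 of 13 alternatives for iHoxc9 and in 10 of 13 for iHoxc10.

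The other 3 calls belonged to PRC1 in iHoxc10. Pcgf2 had 57.0, 58.0 and 60.4 CPM there and 32.9, 44.2 and 32.4 CPM in control (log2 fold change 0.68 ± 0.17 (SE), adjusted p = 0.00507). Phc1 had 117, 125 and 120.1 CPM against 75.2, 100.5 and 69.1 CPM (log2 fold change 0.57 ± 0.15 (SE), adjusted p = 0.00749). Cbx6 had 87.6, 88.8 and 78.2 CPM against 56.1, 61.0 and 63.1 CPM (log2 fold change 0.50 ± 0.11 (SE), adjusted p = 0.0025). In each gene all 3 iHoxc10 libraries lay above control. Of 13 alternatives, 5 ended the call of Pcgf2, 8 that of Phc1 and 5 that of Cbx6. Pcgf2 was above control in every induced library, at 48.3 to 60.4 CPM over 12 libraries, and its estimates in iHoxc6 (log2 fold change 0.64 ± 0.17 (SE), adjusted p = 0.0419), iHoxc8 (0.45 ± 0.17) and iHoxc9 (0.55 ± 0.17) did not pass.

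**Figure D4:**
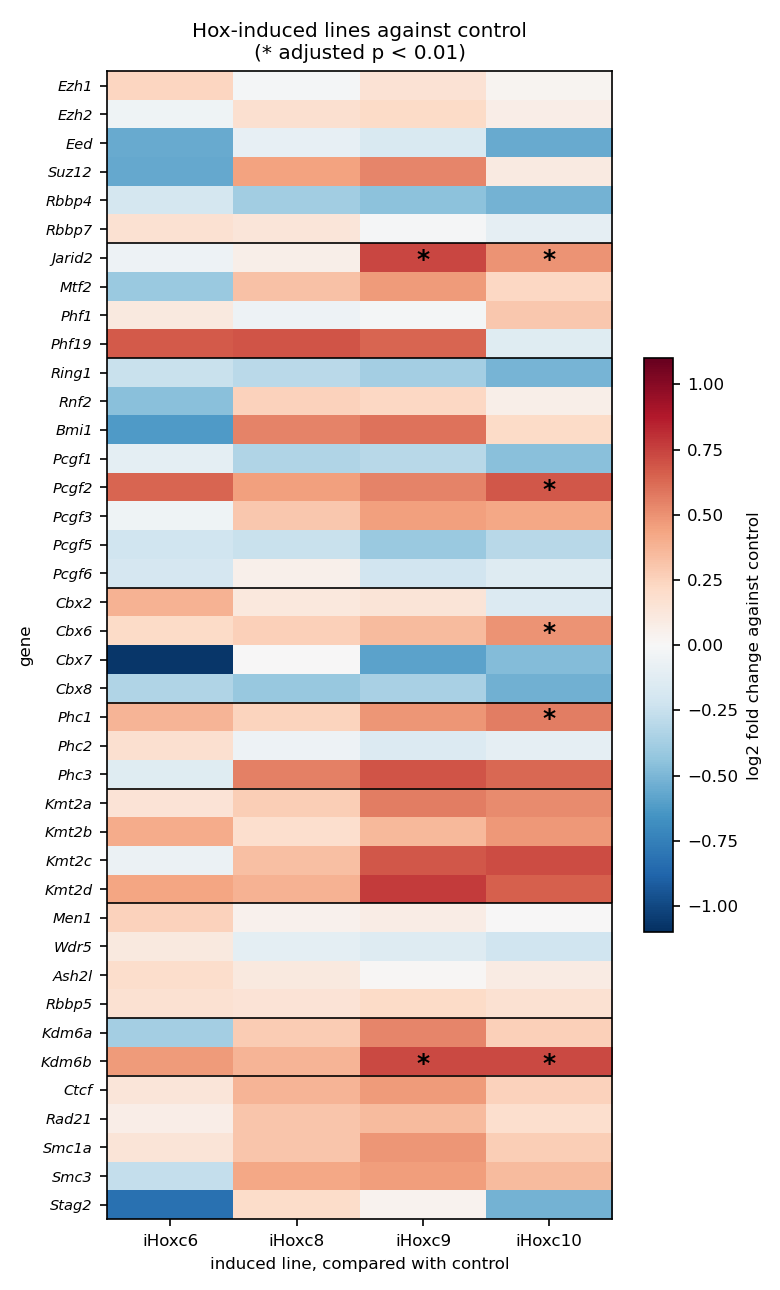
Log2 fold change against control (color, from -1.1 to 1.1) of the 40 genes (rows, ordered by complex) in the 4 induced lines (columns), with an asterisk where the adjusted p was under 0.01. The 7 asterisks fall in iHoxc9 (2) and iHoxc10 (5), and the deepest blue cell is Cbx7 in iHoxc6, at -1.07.

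These counts depended on single libraries. Without control replicate 2, iHoxc6 had 1 gene higher (Pcgf2) and 1 lower (Cbx7), iHoxc8 had 4 higher (Ctcf, Rad21, Smc1a and Smc3 were all called), iHoxc9 had 9 higher and 2 lower, and iHoxc10 had 8 higher and 4 lower. The share of all genes called without that library is not given here. Leaving out any other library of the compared groups gave 1 call (Jarid2) in iHoxc9 and 0 or 1 in iHoxc10, where Cbx6 was the one kept. With GC and length trends taken out, the calls became 1 lower in iHoxc6 (Cbx7, -1.39), 4 higher and 1 lower in iHoxc9, and 2 higher and 3 lower in iHoxc10. That fit called 162, 2988 and 3109 of all genes in these lines. Pcgf2 and Phc1 were higher in both of the last lines and Rbbp4 was lower in both (Rbbp4, -0.81 and -0.77). Exon length moved with these comparisons: across 12598 genes, log2 fold changes correlated with log exon length at r = 0.44, 0.35 and 0.40 in iHoxc8, iHoxc9 and iHoxc10 against control, and the libraries of control itself at 0.08, 0.35 and -0.49.

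An unadjusted p under 0.05 against control was found for 22 of the 40 genes in iHoxc9, 19 higher and 3 lower, and 17 in iHoxc10, 11 higher and 6 lower. The share of all genes under that limit is not given here, so these counts cannot be set against the background. The median log2 fold change of the 40 was 0.01 for iHoxc6, 0.19 and 0.29 for iHoxc8 and iHoxc9, and 0.13 for iHoxc10, against medians between 0 and 0.02 over all genes tested. All genes tested include genes with as little as 1 count in an iHox library, unlike the 40. Over a smaller set of 13192 genes the medians were -0.0009, 0.06, 0.05 and 0.02 in the same order of lines. With GC and length trends taken out, the medians of the 40 became 0.02, -0.01, 0.08 and 0.04. The 4 MLL methyltransferases, with exons of 9596 to 20291 bases, had medians of 0.62 in iHoxc9 and 0.59 in iHoxc10. None of the 4 was called by edgeR over all 18 libraries, whereas a fit of the compared groups alone called Kmt2c and Kmt2d in iHoxc9, and Kmt2b was called in iHoxc10 by DESeq2 and without control replicate 2. Cell type markers differed between these groups too: the 15 cycling markers summed to 1316 to 1488 CPM in iHoxc9 and 847 to 1091 CPM in iHoxc10 against 1198 to 2093 CPM in control (2 and 7 of the 15 lower). Of 6 motor neuron markers, 4 were lower in iHoxc9 (256 to 275 CPM against 495 to 525 CPM in control) and 1 in iHoxc10. Of 10 neuronal markers, 1 was higher in iHoxc9 and 4 in iHoxc10 (11208 to 12585 CPM against 8223 to 9022 CPM). The 8 interneuron markers summed to 35.7 to 44.9 CPM in iHoxc9 and 63.6 to 86.4 CPM in iHoxc10 against 16.6 to 20.9 CPM (2 higher in each, 1 lower in iHoxc9). Of 8 neural progenitor markers, 2 were higher and 2 lower in iHoxc9, and 3 lower in iHoxc10. Their part in the calls of Jarid2, Kdm6b, Pcgf2, Phc1 and Cbx6 was not tested.

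The posterior lines were compared with each other within their shared run. None of the 40 genes passed between iHoxc9 and iHoxc10 (4.99% of all genes did, 2.6% higher in iHoxc9 and 2.4% lower, and 1.31% with an absolute log2 fold change above 2), with 4 at an unadjusted p under 0.05 and 0 called by DESeq2. Here too the share of all genes under the unadjusted limit is not given. The differences ranged from -0.32 (Phf1) to 0.77 (Phf19), and neither end passed (Phf1, adjusted p = 0.166, and Phf19, adjusted p = 0.189). Jarid2 differed by 0.24 ± 0.13 and Kdm6b by 0.00 ± 0.20. Fitted on these groups alone, Stag2 was called higher in iHoxc9.

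Ratios of paired family members within a library do not depend on how libraries are scaled, but library trends with GC content and exon length were not taken out of them. Each was taken as the log2 ratio of CPM per kilobase of exon, and differences between groups were tested by a two-sided exact permutation test, which cannot go below p = 0.1 with 3 libraries against 3. None of 30 tests passed after adjustment, and the lowest adjusted p was 0.3. The ratio of Kdm6b to Kdm6a moved farthest between day 2 and control, from -0.09, 0.54 and 1.19 to 2.04, 2.92 and 2.44, a difference of 1.92 between the group means. Every day 4 library exceeded every day 2 library. The day 2 ratios rose in the order of the correlations of those libraries with GC content (r = -0.64, -0.16 and 0.52).

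The ratio of Cbx2 to Cbx7 rose by 1.25 between day 2 (2.97 ± 0.12, mean ± SD) and control (4.22 ± 0.97) without overlap. The ratio of Rbbp7 to Rbbp4 fell from 0.39 ± 0.35 to -0.71 ± 0.59, and that of Phc1 to Phc2 fell from -1.25 ± 0.08 to -1.80 ± 0.19, again without overlap. The ratio of Ezh2 to Ezh1 changed by -0.70 and that of Pcgf2 to Bmi1 by 1.10, and in both cases the groups overlapped. Per kilobase, Ezh2 exceeded Ezh1 in all 18 libraries.

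Within the shared run of control and iHoxc6, 4 of the 6 ratios separated the groups. The ratio of Pcgf2 to Bmi1 was 1.73, 1.76 and 1.72 in iHoxc6 and 0.21, 0.91 and 0.25 in control, a difference of 1.28. That of Cbx2 to Cbx7 differed by 1.37, that of Kdm6b to Kdm6a by 0.87 and that of Phc1 to Phc2 by 0.21. In iHoxc9 and iHoxc10, only Phc1 to Phc2 separated from control, by 0.65 and 0.69, and no ratio separated iHoxc8 from control. All of these had the smallest p the test can give, 0.1 (adjusted, 0.3). Across 12598 genes, log2 fold changes of iHoxc6 against control correlated with GC content at r = 0.44. The part of this trend in the ratios was not tested.

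**Figure D5:**
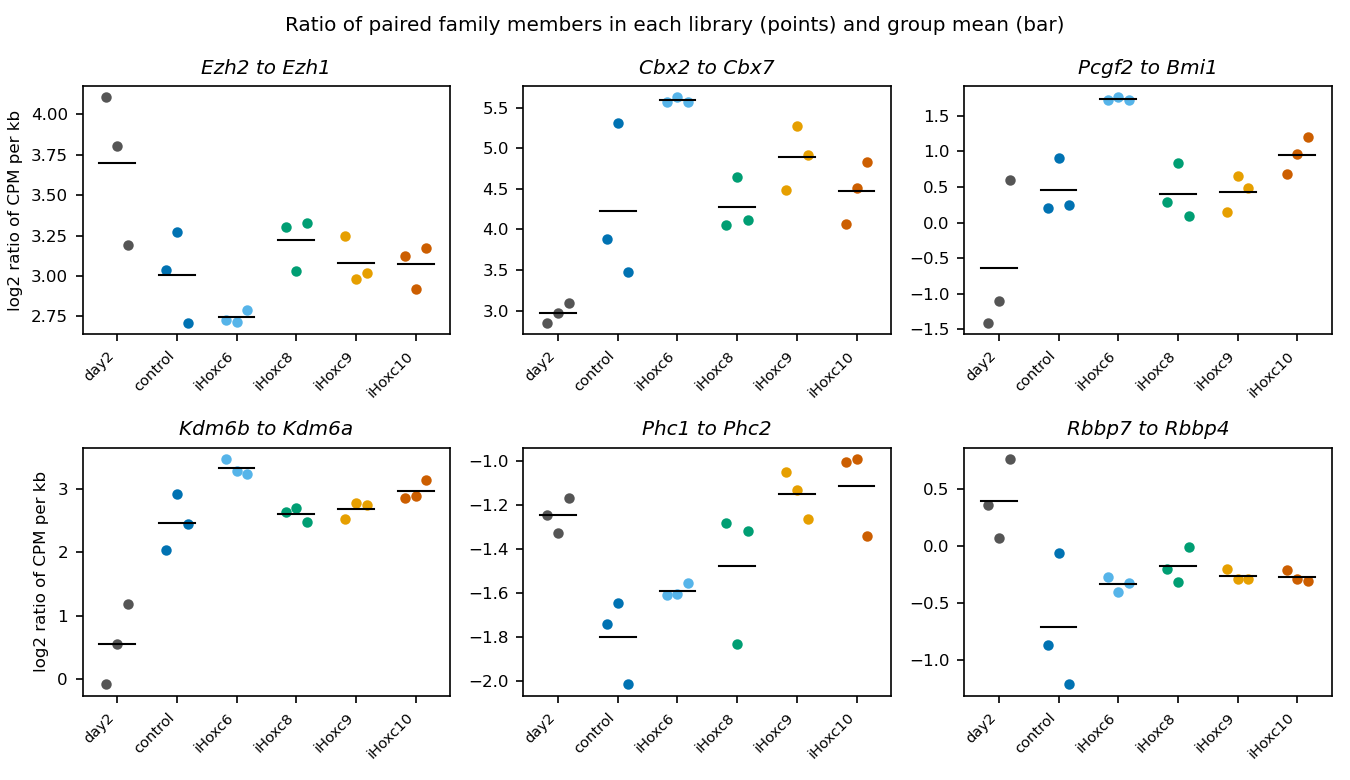
Log2 ratio of CPM per kilobase of exon (y axis) for 6 pairs of related genes in each of 18 libraries (points, replicates 1 to 3 from left to right) by group (x axis), with a bar at the group mean. Kdm6b to Kdm6a lies at or under 1.19 on day 2 and at or above 2.04 on day 4, and Pcgf2 to Bmi1 is tightly grouped near 1.74 in iHoxc6.

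Levels per kilobase of exon allow genes to be ranked. On day 2 the highest were Rbbp7 (116 ± 10.9 CPM per kilobase, mean ± SD), Rbbp4 (88.9 ± 13.8) and Rad21 (65.2 ± 4.71), and the lowest were Phf19 (0.787 ± 0.345), Phc3 (0.784 ± 0.171) and Pcgf5 (0.488 ± 0.0536). In control the order began with Rbbp4 (81.4 ± 14.0), Phc2 (53.1 ± 5.99), Rbbp7 (50.2 ± 13.1) and Rad21 (44.5 ± 11.0), of which the last 3 lay within their spread, and ended with Phf19 (0.124 ± 0.0216) and Pcgf5 (0.123 ± 0.0376), which did not differ beyond it. Eed moved from the 13th place to the 26th and Kdm6b from the 23rd to the 10th. Among the Cbx genes the order on day 2 was Cbx2, Cbx7, Cbx6 and Cbx8, where Cbx7 (3.60 ± 0.597) and Cbx6 (3.34 ± 0.224) lay within their spread, and in control it was Cbx2 (18.2 ± 4.88), Cbx6 (5.66 ± 0.343), Cbx8 (3.77 ± 0.987) and Cbx7 (1.03 ± 0.498). The median of the 40 genes was also taken within each library and averaged over the libraries of a group. It was 10.3 CPM per kilobase on day 2, 9.36 for control, 8.96 for iHoxc6, 11.4 and 12.5 for iHoxc8 and iHoxc9, and 11.7 for iHoxc10.

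The promoters of these genes shared a composition that their choice did not use. RefSeq promoter windows of GRCm38.p6, 250 bases before to 50 after a start site, were at hand for 33 of the 40 genes. For each gene, the window with the most CpG dinucleotides was counted. The median of this count over the 33 genes was 27 (9 to 56), against 8 over 27025 genes. The E2F-type core GGCGGGA, searched on both strands (reverse complement TCCCGCC), occurred in 10 of the 33 genes (30.3%) and in 12.7% of all genes. It was found in 3 of the 6 genes with a window that rose between day 2 and control, in 3 of the 16 that fell and in 4 of the 11 that were not called. The comparison took all genes with a window, expressed in these cells or not, and no set matched for CpG content was compared. A match describes letters only, and no binding was measured here. The 250 bases before the start are shown for a core PRC2 gene that fell, for the accessory gene called in both posterior lines (its second start site) and for a Cbx gene of each direction. They run 5′ to 3′ along the gene, with the core in capitals on either strand: Suz12 at chr11:79992856-79993105 (plus strand), Jarid2 at chr13:44731021-44731270 (plus strand), Cbx7 at chr15:79932647-79932896 (minus strand) and Cbx8 at chr11:119040914-119041163 (minus strand).
Suz12: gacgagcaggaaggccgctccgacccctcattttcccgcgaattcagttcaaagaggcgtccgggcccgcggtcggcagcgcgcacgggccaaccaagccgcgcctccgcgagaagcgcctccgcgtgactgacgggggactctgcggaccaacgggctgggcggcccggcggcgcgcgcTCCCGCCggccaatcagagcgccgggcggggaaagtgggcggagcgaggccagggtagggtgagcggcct
Jarid2: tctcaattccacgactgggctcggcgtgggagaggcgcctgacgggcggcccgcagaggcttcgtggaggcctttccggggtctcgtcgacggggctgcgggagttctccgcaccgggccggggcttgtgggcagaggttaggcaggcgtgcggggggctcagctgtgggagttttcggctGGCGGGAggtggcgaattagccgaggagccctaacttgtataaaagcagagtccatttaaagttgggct
Cbx7: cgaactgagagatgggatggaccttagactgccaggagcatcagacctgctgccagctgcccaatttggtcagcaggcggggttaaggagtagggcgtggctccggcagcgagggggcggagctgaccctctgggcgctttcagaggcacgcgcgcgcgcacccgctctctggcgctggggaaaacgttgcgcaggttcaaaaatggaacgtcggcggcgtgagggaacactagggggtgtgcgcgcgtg
Cbx8: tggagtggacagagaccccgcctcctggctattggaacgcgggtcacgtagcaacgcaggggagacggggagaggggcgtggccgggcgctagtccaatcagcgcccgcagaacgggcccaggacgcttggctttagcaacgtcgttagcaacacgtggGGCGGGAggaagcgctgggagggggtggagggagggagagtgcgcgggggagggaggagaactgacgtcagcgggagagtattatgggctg
These windows hold 37, 22, 23 and 22 CpG dinucleotides. The core occurred once in Suz12, Jarid2 and Cbx8 and was not found in the window of Cbx7, nor in the 250 bases before the first start site of Jarid2.

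Further genes of the same pathways were counted between day 2 and control, from lists assembled by function. Of all genes tested, 21.2% were higher and 21.2% lower. Of 21 other Polycomb genes, 10 rose and 7 fell, with the largest changes in Scml2, a PRC1 partner (-2.39 ± 0.20), and the deubiquitinase cofactor Asxl3 (2.28 ± 0.24). Of 16 further genes of the COMPASS complexes and the H3K4 demethylases, 3 rose and 3 fell. Psip1, which tethers MLL to chromatin (-1.09 ± 0.18), and Uty (-1.09 ± 0.26) fell, and the H3K4 demethylase Kdm5b rose (0.86 ± 0.18). Of 13 genes of cohesin loading and release that were tested, 1 rose and 7 fell. Esco2, which acetylates cohesin in S phase (-2.88 ± 0.28), the meiotic subunit Smc1b (-2.51 ± 0.47) and Cdca5, which protects cohesin until mitosis (-1.51 ± 0.16), changed most. With GC and length trends taken out, 1 gene of the cohesin list rose and 8 fell, against 7 and 10 of the Polycomb list and 2 and 7 of the COMPASS list. Without day 2 replicate 3 and control replicate 2, these counts were 1 and 8, 9 and 9, and 3 and 4.

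Against control, 4 of these 21 Polycomb genes were higher in iHoxc9 (6.95% of all genes were) and 4 in iHoxc10 (6.67%), and 0 were lower in either (7.13% and 7.75% of all genes). In both lines Asxl3 changed most (1.10 ± 0.22 and 1.32 ± 0.22), followed by Scmh1 (0.87 ± 0.16) and Scml2 (0.77 ± 0.21) in iHoxc9 and by Auts2 (0.88 ± 0.19) and Bcorl1 (0.63 ± 0.16) in iHoxc10. In iHoxc9 3 genes of the COMPASS list were higher and 2 lower, in iHoxc10 1 and 2, and Dpy30, a shared MLL subunit, was lower in both (-0.98 ± 0.20 and -0.96 ± 0.20). With GC and length trends taken out, the Polycomb counts became 3 higher and 1 lower in iHoxc9 and 1 higher and 0 lower in iHoxc10.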

How the data were processed

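The authors sequenced polyA RNA (TruSeq Stranded mRNA kit), used STAR (2.7.0c) for alignment to mm10 and featureCounts for assignment to RefSeq genes, and deposited raw counts for each gene and replicate, with duplicate Entrez entries merged. The strand setting of the counting is not given in the sources used here, so overlapping genes are reported as uncertain. Counts were tested in R 4.3.3 with edgeR 4.0.16 (TMM factors, quasi-likelihood test, 1 fit of all 18 libraries with a group term, Benjamini-Hochberg adjustment across 20944 genes, those detected by 1 or more counts in an iHox library), and a change was called at an adjusted p under 0.01. Standard errors were derived from the F statistic. Levels are TMM-normalized CPM, and 3 counts correspond to at most 0.122 CPM. Exon lengths and GC content came from GENCODE M21. The members and lists were chosen with earlier results of these data known. Genes were named by a rule: a call with an absolute log2 fold change above 1 between control and day 2, any call between day 4 groups, and the paired family members, with the 3 largest changes of each further list, of which 1 is not reported here. Alternatives were DESeq2 1.42.0, its size factors, other count filters, fits of 2 groups, the replicate number as a block, single libraries left out, and GC and length trends, which were added after seeing the data. Same-numbered replicates of iHoxc9 and iHoxc10 deviated together from their group means (r = 0.46, 0.42 and 0.54 across genes), which the labels do not explain, so these numbers were taken to pair the libraries. Those of the other comparisons did not. Replicates were independent differentiations according to the study. The code was tested on simulated data.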

Additional observations from a re-analysis of the deposited data

How the results depend on the processing

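Of the 34 calls made for the 40 genes in the 4 induced lines against control and in control against day 2, 15 held in every alternative, 19 were lost in at least 1 and 1 also changed sign. The lowest count of any of the 40 genes in any library was 13 (Phf19). Control against day 2 gave 8 higher and 19 lower under DESeq2, its size factors, both count filters and the replicate block, and 11 lower with only those groups fitted. With GC and length trends taken out, 4 were higher, and Kmt2b (-0.29), Kmt2d (-1.09) and Men1 (-0.40) had the opposite sign. Calls past a log2 fold change of 2 rose from 1 to 2 under DESeq2, its size factors, the stricter count filter, the replicate block and the GC and length trends, and ranged from 1 to 3 with single libraries left out. For iHoxc8 against day 2 they rose from 1 to 3 (DESeq2, its size factors, no count filter, 2 groups), 2 (stricter filter, and 2 to 2 with single libraries left out) or 4 (GC and length). Past a log2 fold change of 1 instead of 2 control had 13 calls against day 2, iHoxc6 had 17, iHoxc8 had 10, iHoxc9 had 12 and iHoxc10 had 15. Shares of all genes past that limit are not given here.

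Against control, iHoxc9 had 2 higher and 0 lower in the reported fit, 5 and 1 under DESeq2, 1 higher under its size factors, without a count filter or with the replicate block, 5 higher with only those groups, and 4 higher and 1 lower with GC and length trends taken out. Here iHoxc10 had 5 higher and 0 lower, 2 lower under DESeq2, 1 lower with the stricter filter, 2 higher and 1 lower with no filter, 1 higher with only those groups, 3 higher with the replicate block, and 2 higher and 3 lower with GC and length trends taken out. The replicate numbers do not pair those libraries, and the block says nothing of a weaker effect. In iHoxc6 1 gene was lower under DESeq2 and with GC and length trends taken out. Between iHoxc9 and iHoxc10, where the numbers did pair, the block left 0 calls, also with GC and length trends taken out, and fitting only those groups gave 1. Leaving out single libraries gave 0 to 1 higher and 0 to 1 lower in iHoxc6, 0 to 4 higher in iHoxc8, 1 to 9 higher and 0 to 2 lower in iHoxc9, and 0 to 8 higher and 0 to 4 lower in iHoxc10. Against day 2, GC and length trends gave iHoxc6 2 higher and 20 lower, iHoxc8 2 and 19, iHoxc9 5 and 17, and iHoxc10 5 and 21. Shares of all genes by direction are not given for that fit. The median level of the 40 genes, taken within each library and averaged over a group, was 59.5 CPM on day 2, 59.0 for control, 58.7 for iHoxc6, 73.7 for iHoxc8 and 75.2 for both iHoxc9 and iHoxc10, or 10.3, 9.36, 8.96, 11.4, 12.5 and 11.7 per kilobase of exon, and 61.2 on day 2 with DESeq2's size factors. The causes of these shifts were not tested.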

Other observations

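The BAF remodeling complexes, which oppose Polycomb and belong to the trithorax group, were also measured between day 2 and control. Of their 27 listed subunits, 14 rose and 3 fell (edgeR, adjusted p under 0.01), where 21.2% of all genes rose and 21.2% fell. The largest changes were in Actl6b, the actin-like subunit of neuronal BAF (5.75 ± 0.24), Bcl11a, a zinc finger subunit (5.56 ± 0.31), and Dpf3, a double PHD finger subunit (3.68 ± 0.21). The 3 that fell, named after their values were seen, were Phf10 (-0.86 ± 0.12), Ss18 (-0.78 ± 0.15) and Actl6a (-0.68 ± 0.12). With GC and length trends taken out, 9 rose and 5 fell, and without control replicate 2 and day 2 replicate 3, 16 rose and 4 fell. Against control, Bcl11a was higher in all 4 induced lines: iHoxc6 (1.35 ± 0.18), which shared the run of control, iHoxc8 (1.85 ± 0.18), iHoxc9 (3.30 ± 0.19) and iHoxc10 (2.75 ± 0.18). In these lines, 0.363%, 1.03%, 6.95% and 6.67% of all genes were higher. The other calls went both ways: Smarcd2 (-0.57 ± 0.15) was lower in iHoxc9. In iHoxc10, Phf10 (-0.44 ± 0.12) and Bcl7c (-0.62 ± 0.13) were lower and Ss18l1 (0.68 ± 0.17) was higher. The remaining BAF subunits were not called against control.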
